A study of Gallus gallus with 53 samples.

Results

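The 100 probe sets described here were the ones raised most by CD40 ligation, late in the time course, among probe sets that changed little after B cell receptor (BCR) ligation in wild type DT40 cells, a chicken B cell line. They were selected on the measured values of 13 of the 53 deposited columns. Of 38361 probe sets, 26866 had a mean log2 intensity over all columns above a fixed minimum, which corresponds to 2.07 intensity units, and 21027 of these had a late mean after 1 and 10 µg/ml anti-IgM that lay within 0.3 log2 of the unstimulated wild type column. The 100 members were the probe sets among them with the largest late mean after 3 and 6 µg/ml CD40 ligand (CD40L), where late means 45, 60 and 90 min. Members are called by their rank in this late CD40L change, 1 being the largest, and no gene is named because the pairing of row identifiers with values could not be established.

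Total RNA was measured on arrays in wild type cells pre-treated with the MEK inhibitor U0126 for 30 min (WT + Inh), in IKKβSA cells (an S176/181A knock-in of IKKβ), and in untreated wild type (WT) cells. Each was stimulated with 6 µg/ml CD40L or 10 µg/ml of the anti-IgM antibody M4, and sampled after 15, 30, 45, 60 and 90 min, and WT cells were also given 1 and 3 µg/ml CD40L and 0.1 and 1 µg/ml anti-IgM. Each of the 3 kinds of cells had 1 unstimulated column (0 min), which gave 11 WT + Inh columns, 11 IKKβSA columns and 31 WT columns in 10 courses. Each column combined 2 biological replicates, so no spread between replicates can be read from the table. The 0 min column of WT + Inh cells bears the same inhibitor label as its courses.

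CD40 is a receptor of the tumour necrosis factor receptor family that receives T cell help on B cells, whereas the BCR binds antigen and is cross-linked by antibodies to IgM. Both receptors reach NF-κB through the IKK complex and ERK through MEK, and CD40 also signals through adaptor proteins of the TRAF family, some of which feed a slower NF-κB route that does not need IKKβ. U0126 blocks MEK and so ERK activation, and alanine in place of the 2 activation-loop serines of IKKβ removes the phosphorylation sites by which that kinase is switched on.

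The values that chose the members are a description and carry no test. The late CD40L change of the members ran between 0.55 and 1.08 log2, which is 1.47- to 2.11-fold, with a median of 0.67. Their late anti-IgM change ran between -0.26 and 0.29, with a median of 0.13. The rule cut through a continuous distribution. Members 96 to 100 had late CD40L changes of 0.56, 0.56, 0.56, 0.56 and 0.55, and the next 5 probe sets had 0.55 each. The 5 members nearest the anti-IgM limit had anti-IgM changes between 0.28 and 0.29, and the 5 probe sets just past the limit had 0.31, 0.32, -0.33, -0.33 and -0.33. A late CD40L change at or above that of member 100 was seen in 205 probe sets, of which 97 were left out because they were also raised after anti-IgM and 8 because they were lowered.

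The members' intensity in unstimulated WT cells ran between 1.83 and 257.5 with a median of 9.04, above the median of 4.91 over the 26866 probe sets. Under 4 intensity units stood 18 members, 69 lay between 4 and 32, and 13 were above 32. The minimum intensity was set on the mean over all columns, CD40L columns included. A dim probe set could therefore pass it through its CD40L values. Member 18 had 1.83, 2.18 and 2.1 in the unstimulated WT, WT + Inh and IKKβSA columns and up to 4.3 after CD40L. How many members passed only in this way was not counted, and the calls of such members carry this limit. Before stimulation the members' median difference was -0.03 log2 for WT + Inh minus WT cells and 0.05 log2 for IKKβSA minus WT cells. For WT + Inh minus IKKβSA cells it was -0.09 log2, with 22 members at or below -0.3 and 10 at or above 0.3. Whole columns differed slightly, with median intensities between 2.74 in the unstimulated WT column, the lowest of all, and 2.95. In these bulk samples, a change in the share of cells that express an RNA and a change in RNA per cell cannot be told apart.

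In the 40 columns that did not enter the choice, the members were again high after CD40L and low otherwise, but not in every CD40L course and at every time. For each column, the median over the members of their deviation from their own mean across the 53 columns, those of the choice included, was taken as the members' level. This level was between 0.14 and 0.60 log2 in 20 columns, all of them CD40L columns, 14 of which the choice had not used. It was between -0.42 and -0.003 in the other 33, among them every anti-IgM and unstimulated column and 5 CD40L columns. Those 5 were the 1 µg/ml columns at 15, 30, 45 and 60 min and the 3 µg/ml column at 15 min. The whole-column median intensity was between 2.78 and 2.95 in the 20 high columns and between 2.74 and 2.95 in the 33 low ones, so the 2 sets overlapped in overall brightness.

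**Figure D1:**
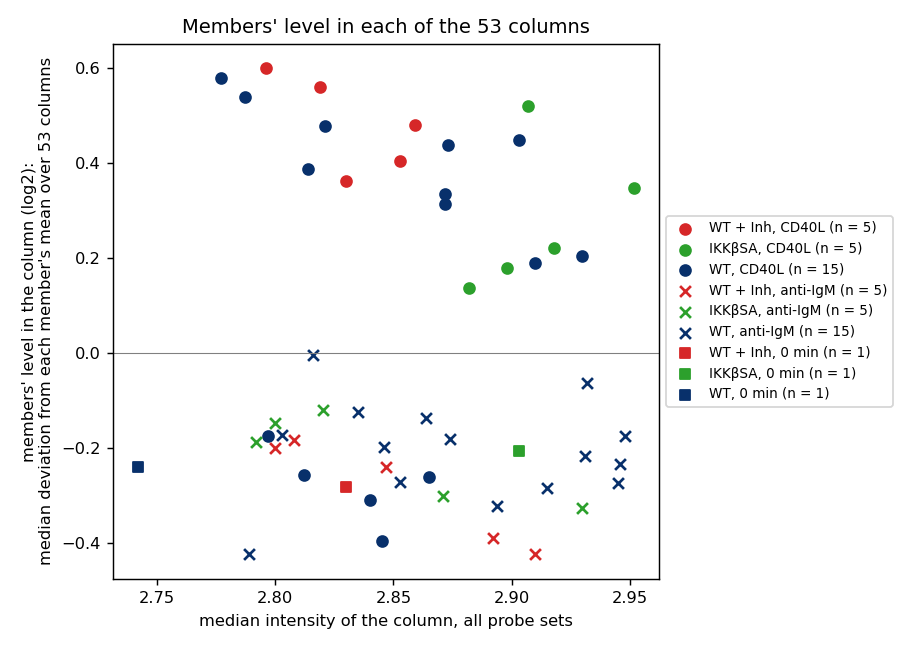
The members' level in each of the 53 columns (vertical axis, log2, median over 100 members of the deviation from their own mean) is plotted against the median intensity of the whole column (horizontal axis). Circles are CD40L, crosses anti-IgM and squares 0 min. The 20 columns above 0 are all CD40L columns, and the 2 sets of columns span nearly the same range of whole-column medians.

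In MEK-inhibited cells most members rose with CD40L. Against the WT + Inh 0 min column, 63 of the 100 were higher over 45 to 90 min, none lower, with a median difference of 0.82 log2 and a median standard error of 0.21 (limma across 26866 probe sets, Benjamini-Hochberg adjusted p under 0.05; 2.75% of all probe sets were called higher). Compared with anti-IgM in the same cells, which needs no single 0 min column, 89 were higher after CD40L and none lower, with a median difference of 0.75 log2 (median standard error 0.15), and 9.43% of all probe sets were called higher. In 79 members all 5 CD40L columns lay above all 5 anti-IgM columns and the 0 min column, as they did in 4.88% of all probe sets.

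The response of MEK-inhibited cells was already present at 15 min. At 15, 30, 45, 60 and 90 min, 86, 87, 94, 85 and 92 members were at least 0.3 log2 higher after CD40L than after anti-IgM at the same time, where 11.7%, 9.8%, 9.63%, 10.1% and 12.8% of all probe sets were. Relative to the 0 min column, the members' median change after CD40L was 0.64, 0.70, 0.80, 0.75 and 0.84 log2 at these times. After anti-IgM it was -0.15, -0.13, 0.04, 0.10 and 0.06 log2. Over all 26866 probe sets the median changes in these courses stayed within 0.02 log2 of 0.

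In IKKβSA cells the late change after CD40L was above 0 in 99 members, as in WT + Inh cells, and part of them were called. The median standard error of this change was 0.21 log2, and the share of all probe sets above 0 was not counted. Against the IKKβSA 0 min column, 23 were called higher and none lower (median difference 0.60 log2, limma; 0.636% of all probe sets were called higher). Compared with anti-IgM in IKKβSA cells, 55 were called higher and 1 lower, with a median difference of 0.48 log2, against 6.55% of all probe sets called higher. These counts depended on which times entered the fit, and no share of all probe sets was computed for the fits with a time left out. Without the 60 min columns of all courses they were 3 and 27, with median differences of 0.58 and 0.47 log2. Without the 90 min columns they were 12 and 28, with median differences of 0.53 and 0.38 log2. Leaving out a time also changes the estimate of spread, so the counts do not show in which columns the response lay. In 50 members all 5 CD40L columns lay above all 5 anti-IgM columns and the 0 min column, as in 2.43% of all probe sets.

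In IKKβSA cells the members' median change was larger at each later time. The members' median change after CD40L was 0.31, 0.34, 0.48, 0.56 and 0.70 log2 at 15, 30, 45, 60 and 90 min, and after anti-IgM it was -0.12, -0.12, 0.07, 0.03 and -0.01 log2. At these times 70, 65, 52, 64 and 76 members were at least 0.3 log2 higher after CD40L than after anti-IgM, where 5.91%, 5.2%, 7.23%, 9.12% and 11.4% of all probe sets were. The highest of the 5 CD40L values fell at 90 min in 68 members in IKKβSA cells and in 48 members in WT + Inh cells. Times of the highest value were not counted over all probe sets, so it is not known whether this is particular to the members.

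**Figure D2:**
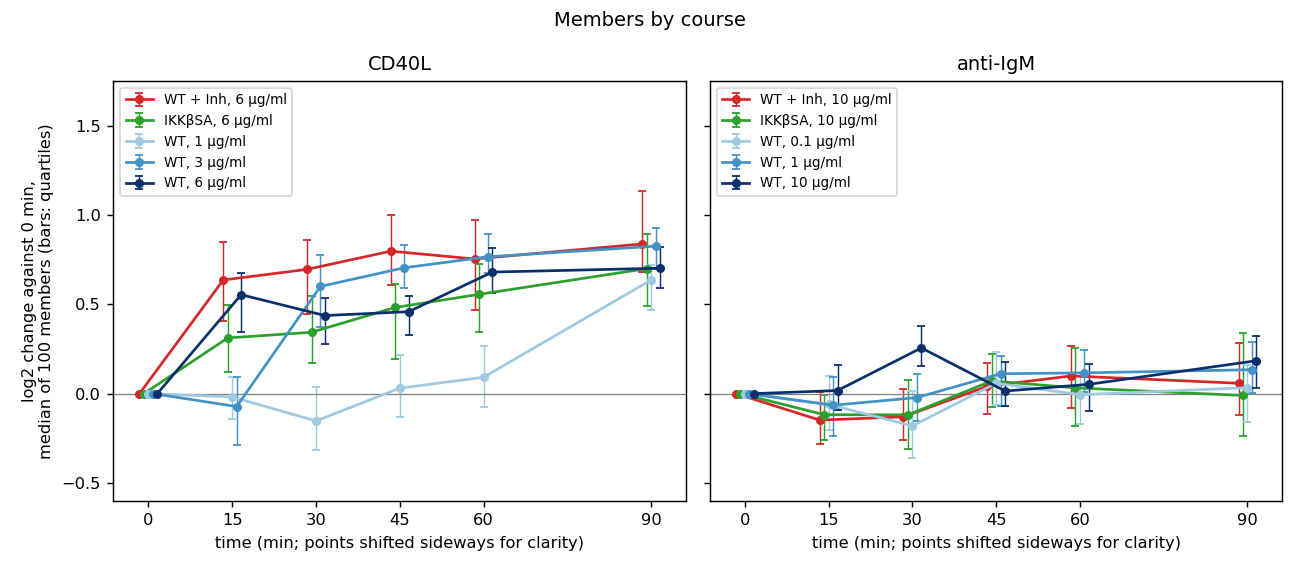
The median log2 change of the 100 members against the 0 min column of the same cells (vertical axis; bars are quartiles over members) is plotted against time in min for the 5 CD40L courses on the left and the 5 anti-IgM courses on the right. The CD40L medians end between 0.64 and 0.84 at 90 min, and those of anti-IgM between -0.01 and 0.18.

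The 55 members called higher after CD40L than after anti-IgM in IKKβSA cells were all also called in WT + Inh cells. A further 34 were called in WT + Inh cells alone, and 11 in neither. The same overlap over all probe sets was not counted, so it is not known whether it is particular to the members. Whether the difference between CD40L and anti-IgM itself differs between these cells was not tested. The change after CD40L was larger in WT + Inh than in IKKβSA cells in 81, 83, 85, 69 and 70 members at 15, 30, 45, 60 and 90 min, with median differences of 0.30, 0.29, 0.39, 0.21 and 0.19 log2. These counts are descriptions, and the matching shares of all probe sets were not computed. The difference between WT + Inh and IKKβSA cells, tested for the late mean, was called in no member in either direction, and 0.0% of all probe sets were called higher and 0.0% lower (limma). Its median over the members was 0.25 log2 with a median standard error of 0.30, and its median over all probe sets was 0.01 log2. Of the 100 members 79 were above 0, and 10 were higher and 1 lower at an unadjusted p under 0.05, without a count over all probe sets. The unstimulated WT + Inh and IKKβSA columns, 1 each, enter this difference and the 5 differences by time, and 22 members were at least 0.3 log2 lower in the WT + Inh one.

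**Figure D3:**
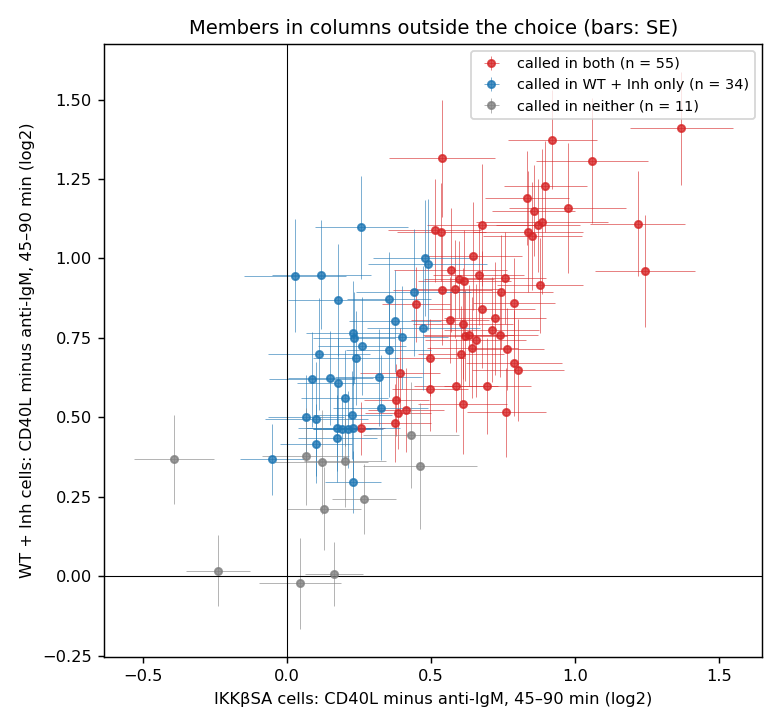
Each point is 1 member, with the late difference between CD40L and anti-IgM in IKKβSA cells on the horizontal axis and in WT + Inh cells on the vertical axis (log2; bars are standard errors of the fit). Most points lie right of 0 and above 0, with 55 called in both cells, 34 in WT + Inh cells only and 11 in neither.

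Member 4 had the largest difference between CD40L and anti-IgM in both WT + Inh and IKKβSA cells. Its intensity after CD40L was 37.7, 42.2, 42.4, 43.7 and 43.8 at 15, 30, 45, 60 and 90 min in WT + Inh cells, against 16.3, 14.1, 16.2, 16.7 and 16.1 after anti-IgM and 18.5 at 0 min. In IKKβSA cells it was 32.0, 30.9, 33.8, 35.3 and 34.6 after CD40L, against 12.2, 11.8, 15.2, 13.5 and 11.7 after anti-IgM and 16.5 at 0 min. The CD40L columns lay above all the others of the same cells without overlap. The late difference was 1.41 ± 0.18 log2 in WT + Inh cells (SE, adjusted p = 2.32e-07, limma) and 1.37 ± 0.18 log2 in IKKβSA cells (adjusted p = 2.85e-07).

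In WT cells member 4 was raised from a different time at each dose, and then stayed nearly level at 3 and 6 µg/ml. At 1 µg/ml only the last time was raised. With 1 µg/ml CD40L its intensity was 16.0, 15.1, 15.5, 18.1 and 32.8 at 15, 30, 45, 60 and 90 min. With 3 µg/ml it was 17.8, 40.2, 40.2, 33.6 and 35.5, and with 6 µg/ml 35.5, 32.2, 30.2, 34.9 and 31.9, where the unstimulated WT column had 17.5. Thus it stayed near the unstimulated level until 60 min at the lowest dose, was raised by 30 min at the middle dose and by 15 min at the highest. Its 15 WT anti-IgM values all lay between 12.6 and 23.6.

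Member 1, the one with the largest late CD40L change, and member 10 had the same order of onset by dose. Member 1 had 3.37, 3.78, 4.43, 4.75 and 8.43 with 1 µg/ml CD40L, 3.10, 8.69, 9.10, 9.63 and 10.8 with 3 µg/ml, and 6.89, 6.88, 7.48, 8.12 and 10.7 with 6 µg/ml, where the unstimulated WT column had 4.37. Member 10 had 7.32, 5.83, 7.38, 7.38 and 12.5 with 1 µg/ml, 5.67, 15.0, 14.7, 16.7 and 17.0 with 3 µg/ml, and 14.2, 11.8, 13.0, 15.7 and 15.7 with 6 µg/ml, where the unstimulated WT column had 8.41. In both, the 15 min column at 3 µg/ml was below the unstimulated one and the 30 min column was far above it. The late difference between CD40L and anti-IgM was 1.16 ± 0.20 log2 for member 1 (adjusted p = 5.25e-05, limma) and 1.31 ± 0.20 log2 for member 10 (adjusted p = 4.49e-06) in WT + Inh cells. In IKKβSA cells it was 0.98 ± 0.20 log2 for member 1 (adjusted p = 0.000579) and 1.06 ± 0.20 log2 for member 10 (adjusted p = 0.000118).

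The other members of the 10 with the largest late CD40L change were all called in WT + Inh cells, and in part in IKKβSA cells. In WT + Inh cells all of members 2, 3, 5, 6, 7, 8 and 9 were called higher after CD40L than after anti-IgM, by 0.75, 0.87, 0.86, 0.96, 1.15, 0.72 and 0.80 log2. Most of them were dim. In the unstimulated WT column, whose median over all probe sets was 2.74, they had 2.57, 3.18, 15.4, 3.22, 4.94, 2.82 and 4.42 intensity units. In IKKβSA cells members 5, 6, 7 and 8 were called, by 0.79, 0.57, 0.86 and 0.76 log2. Members 2, 3 and 9 were not, with differences of 0.23 (adjusted p = 0.274), 0.35 (adjusted p = 0.092) and 0.37 (adjusted p = 0.103) log2. Member 7, for example, had 11.0, 9.08, 10.4, 11.2 and 11.5 intensity units after CD40L in WT + Inh cells against 4.53 at 0 min, and 7.34, 6.58, 7.42, 7.68 and 8.60 after CD40L in IKKβSA cells against 5.03 at 0 min.

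**Figure D4:**
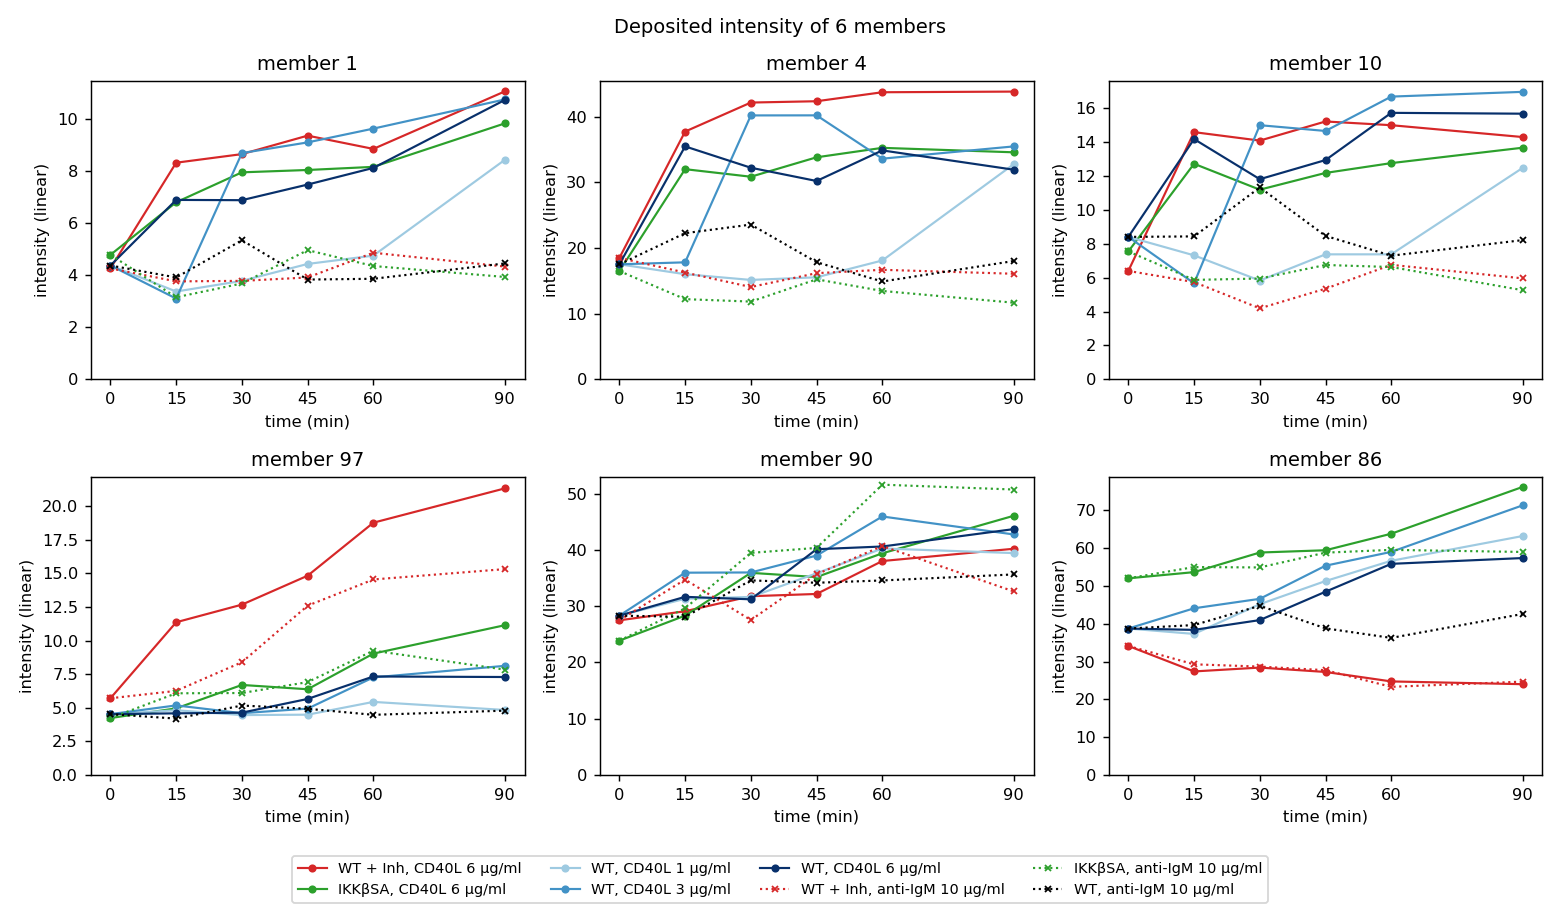
Deposited intensity (vertical axis, linear, starting at 0) of members 1, 4, 10, 97, 90 and 86 against time in min, for 5 CD40L courses (solid lines) and 3 anti-IgM courses at 10 µg/ml (dotted lines). Members 1, 4 and 10 separate by stimulus, members 97 and 90 also climb after anti-IgM in some cells, and member 86 declines in WT + Inh cells after both stimuli.

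The onset seen in members 1, 4 and 10 was shared by most of the list. The 1 µg/ml CD40L course did not enter the choice, but the unstimulated WT column did, so changes against that column are a description at every dose and time. Against it the members' median change was -0.02, -0.15, 0.03, 0.09 and 0.64 log2 at 15, 30, 45, 60 and 90 min with 1 µg/ml. Steps between times do not use that column. The step between 60 and 90 min was at least 0.3 log2 in 73 members, against 3.71% of all probe sets, with a median of 0.50. In 90 members the 90 min column lay above the other 4 columns of that course and all 5 columns of 0.1 µg/ml anti-IgM, as in 11.0% of all probe sets. The 90 min time is 1 column, and what else may differ in it was not tested.

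With 3 µg/ml CD40L the corresponding step came between 15 and 30 min, 2 times outside the choice. It was at least 0.3 log2 in 80 members, with a median of 0.61, where 4.23% of all probe sets had such a step. The members' median change was -0.07 at 15 min and 0.60 at 30 min, and 0.70, 0.77 and 0.83 at the later times that chose them. With 6 µg/ml it was 0.55 and 0.44 at 15 and 30 min, and 0.46, 0.68 and 0.70 at the later times. From 30 min on, the 6 µg/ml medians were below those of 3 µg/ml.

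**Figure D5:**
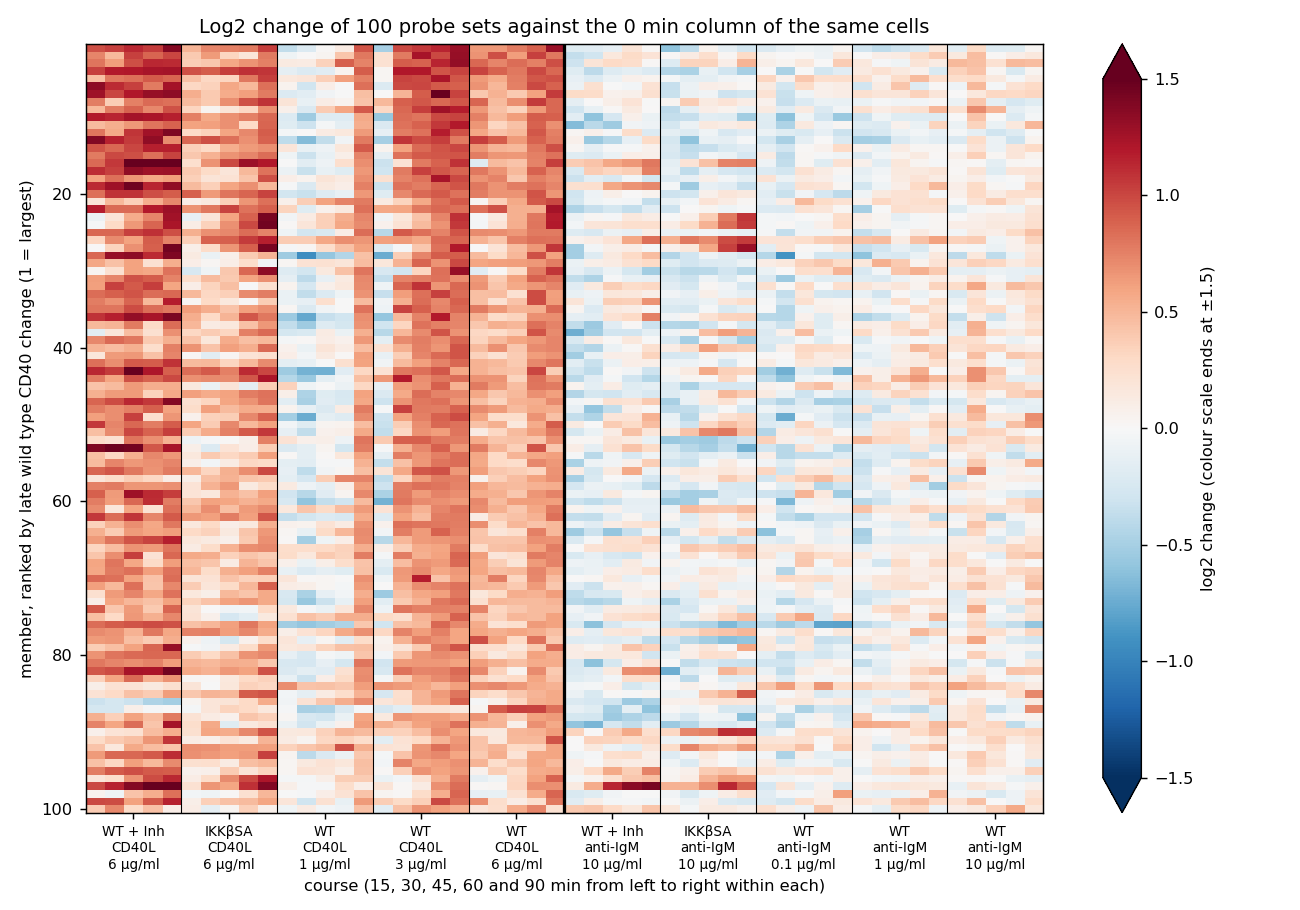
Each row is 1 member, ordered by its late CD40L change in WT cells, and each column is 1 deposited column, coloured by its log2 change against the 0 min column of the same cells. The thick line separates the CD40L courses on the left from the anti-IgM courses on the right. The WT 1 µg/ml CD40L course turns red at 90 min in most rows, the 3 µg/ml course at 30 min and the 6 µg/ml course at 15 min.

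Over 15 and 30 min together, members were higher in WT cells after 3 and 6 µg/ml CD40L than after 1 and 10 µg/ml anti-IgM. The median difference was 0.29 log2 (median standard error 0.13), and 20 members were called higher and none lower, where 1.98% of all probe sets were called higher (limma). These are other times of the courses that chose the members. The count was 10 without the 60 min columns, which enter the estimate of spread, 13 with columns centred on their medians and 13 in a fit of only the columns outside the choice. It was 31 with time as a factor common to all courses and 38 with a spline of time for each course. No share of all probe sets was computed for these alternative counts. Member 22 had the largest early difference, 0.92 ± 0.13 log2 (SE, adjusted p = 2.42e-05). Its intensities were 9.22 and 9.30 with 3 µg/ml CD40L and 10.9 and 11.9 with 6 µg/ml, against 4.35 and 6.15 with 1 µg/ml anti-IgM and 5.42 and 6.05 with 10 µg/ml.

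By time, the counts of members at least 0.3 log2 higher after CD40L than after anti-IgM followed the same onset at 1 and 3 µg/ml CD40L. For 1 µg/ml CD40L set against 0.1 µg/ml anti-IgM, they were 9, 2, 6, 28 and 88 at 15, 30, 45, 60 and 90 min, where 5.13%, 4.97%, 6.87%, 12.4% and 13.4% of all probe sets were. For 3 µg/ml set against 1 µg/ml, they were 9 at 15 min and 78 at 30 min, where 7.05% and 8.27% of all probe sets were. For 6 µg/ml set against 10 µg/ml, they were 72 at 15 min and 28 at 30 min, where 5.51% and 7.17% of all probe sets were. This count was thus high at 15 min but fell at 30 min. The members' median change at 30 min was 0.44 log2 with 6 µg/ml CD40L and 0.26 log2 with 10 µg/ml anti-IgM. At the lowest doses the members up to 45 min thus stood near or below the share of all probe sets.

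The late means at the lowest doses hid this timing. Averaged over 45 to 90 min, 16 members were called higher with 1 µg/ml CD40L than with 0.1 µg/ml anti-IgM and none lower, with a median difference of 0.23 log2, where 8.74% of all probe sets were called higher (limma). The count was 1 without the 60 min columns, 3 without the 90 min columns and 28 without the 45 min columns, each without a share of all probe sets. The median difference in these fits was 0.28, 0.0009 and 0.37 log2. The count without the 60 min columns thus fell while the median difference did not, and leaving out a time also changes the estimate of spread. Member 9 had the largest such difference, 0.67 ± 0.16 log2 (adjusted p = 0.00376), with 4.66, 3.82, 5.74, 6.68 and 8.35 intensity units after CD40L against 4.87, 3.92, 4.86, 3.80 and 4.28 after anti-IgM. Member 45 had the lowest, -0.25 ± 0.14 log2 (adjusted p = 0.256).

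Not every member followed the plateau. A smaller group climbed at every step. After CD40L, the value at each time exceeded that at the time before, over 15 to 90 min, in 14 members in WT + Inh cells (1.81% of all probe sets), in 18 in IKKβSA cells (1.93%) and in 13 in WT cells at 1 µg/ml (3.13%). Members 24 and 27, and member 23, which was chosen after its values were seen, did so in all 3 courses. Members 23 and 24 had nearly parallel values, and whether they are probe sets of the same gene was not tested. Member 24 had 137.5, 171.9, 218.6, 256.4 and 326.8 in WT + Inh cells against 139.7 at 0 min, 164.8, 193.6, 245.0, 303.5 and 415.5 in IKKβSA cells against 152.4 at 0 min, and 167.4, 187.9, 212.1, 247.3 and 270.3 in WT cells at 1 µg/ml against 165.5 at 0 min. It is one of the brightest members, and at 1 µg/ml it was above the unstimulated level at all 5 times, before the 90 min step of most of the list. Member 27, a dimmer one, had 21.7, 27.2, 34.9, 40.2 and 58.7 in WT + Inh cells against 21.6 at 0 min.

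Flatness after anti-IgM was a property of the late WT mean that chose the members and did not hold for every column. In 36 members all 6 late columns of 1 and 10 µg/ml anti-IgM were within 0.3 log2 of unstimulated WT cells, and in 64 at least 1 was at or past that limit. At 30 min with 10 µg/ml anti-IgM the members' median change was 0.26 log2, a description since the unstimulated WT column entered the choice. The step between 15 and 30 min of this course, 2 columns outside the choice, was at least 0.3 log2 in 34 members, where 5.02% of all probe sets had such a step. Member 10 had 11.3 at 30 min in this course, against 8.44 at 15 min and 8.47 at 45 min, and member 1 had 5.34 against 3.91 and 3.83. With 0.1 µg/ml anti-IgM, a course the choice did not use, the median changes were -0.06, -0.18, 0.06, -0.01 and 0.03 log2 at 15, 30, 45, 60 and 90 min, and the raised 30 min column was not seen.

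In the mutant and inhibited cells, most members, like most of all probe sets, were not called changed after anti-IgM. In WT + Inh cells 2 were called higher and none lower over 45 to 90 min, with a median change of 0.05 log2, where 3.09% of all probe sets were called higher and 2.4% lower (limma). In IKKβSA cells 9 were called higher and none lower, with a median change of 0.03 log2, where 4.11% of all probe sets were called higher and 1.69% lower. Without the 60 min columns the IKKβSA count was 2, for which no share of all probe sets was computed. At an unadjusted p under 0.05, 9 members were higher and 2 lower in WT + Inh cells, and 17 higher and 3 lower in IKKβSA cells. These unadjusted counts were not made over all probe sets, so whether they exceed the share of all probe sets is not known. With standard errors near 0.21, changes of the size of the limit of 0.3 log2 could rarely be called.

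Among the members called higher after anti-IgM in IKKβSA cells were members 23, 24 and 27, which climbed at every step after CD40L. Member 27 had 24.4, 26.1, 34.7, 47.1 and 57.0 after anti-IgM in IKKβSA cells against 23.2 at 0 min, a late change of 0.97 ± 0.25 log2 (SE, adjusted p = 0.013, limma), and 24.6, 28.0, 36.6, 43.3 and 62.0 after CD40L. In WT + Inh cells the same member had 15.1, 21.0, 23.1, 23.3 and 21.4 after anti-IgM against 21.6 at 0 min (late change 0.06 log2, adjusted p = 0.94). Member 24 had a late anti-IgM change of 0.80 ± 0.21 log2 in IKKβSA cells (adjusted p = 0.0135) and of 0.23 log2 in WT + Inh cells (adjusted p = 0.64). Whether the anti-IgM changes of these members differ between the cells was not tested.

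Member 90 had the largest anti-IgM change in IKKβSA cells, 0.99 ± 0.16 log2 (adjusted p = 4.17e-05). Its values there were 29.6, 39.5, 40.4, 51.6 and 50.7 after anti-IgM and 28.3, 35.9, 35.2, 39.4 and 46.1 after CD40L, against 23.9 at 0 min. Its choice rested on the edge of the rule, since its late anti-IgM change in WT cells was 0.29. In these cells anti-IgM values were above CD40L values at every time, by a late mean of 0.24 log2 (adjusted p = 0.13).

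Member 97 rose after both stimuli in both kinds of cells. In WT + Inh cells it had 11.4, 12.7, 14.8, 18.8 and 21.3 after CD40L and 6.26, 8.39, 12.6, 14.5 and 15.3 after anti-IgM, against 5.71 at 0 min. The late change was 1.66 ± 0.23 log2 after CD40L (adjusted p = 1.49e-05) and 1.30 ± 0.23 log2 after anti-IgM (adjusted p = 0.00034). In IKKβSA cells the late changes were 1.02 log2 (adjusted p = 0.0131) after CD40L and 0.91 log2 (adjusted p = 0.0108) after anti-IgM. In WT cells with 10 µg/ml anti-IgM its values lay between 4.20 and 5.17 around an unstimulated level of 4.53. Member 16 had the largest CD40L change in WT + Inh cells, 1.76 ± 0.23 log2 (adjusted p = 9.26e-06), with 11.1, 12.8, 18.8, 21.1 and 22.9 against 6.15 at 0 min, and 1.16 ± 0.23 log2 in IKKβSA cells (adjusted p = 0.00461).

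A few members departed from the rest in some of the courses. Member 86 had 27.4, 28.4, 27.2, 24.7 and 24.0 after CD40L in WT + Inh cells against 34.1 at 0 min (late change -0.43 ± 0.14 log2, adjusted p = 0.0683), and 53.6, 58.8, 59.4, 63.8 and 76.1 in IKKβSA cells against 52.0 at 0 min (0.35 ± 0.14 log2, adjusted p = 0.265). The difference between these late changes was -0.78 ± 0.20 log2 (adjusted p = 0.215). With time as a factor common to all courses it was called (adjusted p = 0.0355), as it was with a spline of time for each course (-0.72 ± 0.13 log2, adjusted p = 0.00268), the only member so called in either case. In WT cells at 1 µg/ml CD40L member 86 had 37.3, 45.1, 51.3, 56.6 and 63.2, against 38.7 at 0 min, an increase at each step after 15 min.

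Member 75 was the one member called lower after CD40L than after anti-IgM, in IKKβSA cells, with a difference of -0.39 ± 0.14 log2 (adjusted p = 0.0437). It had 15.2, 13.8, 11.0, 11.7 and 14.4 after CD40L against 11.2, 12.2, 14.4, 16.3 and 17.9 after anti-IgM. The order of the stimuli turned between 30 and 45 min. In WT + Inh cells it was called higher after CD40L than at 0 min, by 0.63 log2 (adjusted p = 0.0489). Member 87 was raised mainly in 1 course. Its values with 6 µg/ml CD40L in WT cells were 3.36, 6.16, 6.62, 6.58 and 5.81, against 3.26 unstimulated, and 5.35 at 90 min with 10 µg/ml anti-IgM. Its 5 CD40L values lay between 2.41 and 3.08 in WT + Inh cells and between 2.39 and 3.07 in IKKβSA cells. Of the 100 members, 6 were called in none of the 4 late CD40L comparisons in WT + Inh and IKKβSA cells, against 0 min or against anti-IgM. The matching share of all probe sets was not counted.

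The members resembled one another in columns outside the choice. Over the 22 WT + Inh and IKKβSA columns, the Pearson correlation of log2 values between members had a median of 0.74 over 4950 pairs, with 0.39 at the 10th and 0.89 at the 90th percentile and a range between -0.64 and 0.99. Points share cells, courses and the 2 unstimulated columns, and genes of a list chosen on 1 contrast share that contrast, so these are descriptions. Set against the median of the other 99, 84 members had a correlation above 0.7 and 3 were under 0.3, namely members 86, 90 and 100. A correlation above 0.95 joined 46 pairs made of 32 members. How many of these are probe sets of the same gene was not tested. Outside the list, 878 of 26766 probe sets (3.28%) also correlated above 0.7 with the members' median. Their median late change in WT cells was 0.16 log2 after CD40L and -0.16 log2 after anti-IgM.

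The 97 probe sets left out for also being raised after anti-IgM are set beside the members here without a test. In WT + Inh cells the members' median late CD40L change was 0.82 log2 and that of the 97 probe sets was 0.48 log2. In IKKβSA cells it was 0.60 log2 in the members and 0.39 log2 in the 97 probe sets. In WT cells at 3 and 6 µg/ml the values chose both lists, and the order differed by dose. At 3 µg/ml the median was 0.76 log2 in the members and 0.64 log2 in the 97 probe sets. At 6 µg/ml it was 0.60 log2 in the members and 0.71 log2 in the 97 probe sets. With 1 µg/ml CD40L the 97 probe sets had median changes of 0.12, 0.16, 0.35, 0.41 and 0.49 log2 at 15, 30, 45, 60 and 90 min, without the step at 90 min that the members showed.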

How the data were processed

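The authors hybridised biotinylated cRNA to Affymetrix arrays and deposited 1 intensity per probe set and column, processed with RMA per the submitters' processing notes; values are linear, and no source used here says whether RNA or array values of the 2 replicates were combined. Whole-table columns were mapped to samples by title, and 0 columns belonged to other samples. Members, contrasts and lists were chosen with earlier results of these data known.

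Intensities were log2-transformed with no pseudocount, and 11495 probe sets with a mean log2 at or under the minimum (2.07 intensity units) were left out. limma 3.58.1 in R 4.3.3 (lmFit, eBayes with trend) fitted 23 means to 53 columns: the 3 unstimulated columns, and the early (15, 30 min) and late (45, 60, 90 min) columns of each of 10 courses, which left 30 residual degrees of freedom. Change over time within a window counted as error, and the columns of a course are not known to be separate cultures, so p-values measure the spread between columns only. Contrasts were adjusted by Benjamini-Hochberg over 26866 probe sets and called at 0.05. The script was tested on simulated data. Wild type changes that chose the members were not tested.

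Described singly were the 10 members with the largest late CD40L change, those at the edges of the rule, and examples from the 3 highest and 3 lowest of each contrast. A share of all probe sets is given beside the main count of members called in each contrast. None was computed for counts at an unadjusted p, overlaps of calls, counts under alternative settings and some descriptive counts. Python 3.11.15, pandas 2.3.3, numpy 2.4.6 and matplotlib 3.10.9 were used for counts and plots. Row identifiers were checked through pairs of bright rows that carry the same symbol: 1693 such pairs had a median correlation of 0.30, against 0.09 for pairs of different symbols, which does not establish the pairing of single rows.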

Additional observations from a re-analysis of the deposited data

Results flagged for a closer look

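In 3 members every WT + Inh column changed in the opposite direction to every IKKβSA column of the same stimulus, relative to the 0 min column of the same cells. Member 86 did so after both stimuli. Its mean change over the 5 times after CD40L was -0.38 log2 in WT + Inh cells and 0.25 log2 in IKKβSA cells, a difference of -0.63 log2. After anti-IgM it was -0.36 log2 in WT + Inh cells and 0.14 log2 in IKKβSA cells, a difference of -0.50 log2. Member 7 had a mean change after anti-IgM of 0.19 log2 in WT + Inh cells and -0.21 log2 in IKKβSA cells, a difference of 0.40 log2. Member 19 had 0.49 log2 in WT + Inh cells and -0.24 log2 in IKKβSA cells after anti-IgM, a difference of 0.73 log2. These differences over 5 times were not tested. Such opposite changes were not counted over all probe sets, so it is not known whether they are particular to the members. All 5 changes of a course share 1 unstimulated column, so a low or high 0 min value moves all of them together.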

How the results depend on the processing

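Of 126 alternative values for the 9 counts of members called, 97 stayed within 1.5 times the main count. Values are the percent of the list called, and no share of all probe sets was computed for the alternatives. For CD40L above 0 min in IKKβSA cells (main 23), the share was 35.6 among the 59 members with a mean log2 above 3, 3 without the 60 min columns, 12 without the 90 min columns and 45 with a spline of time. For CD40L above anti-IgM in IKKβSA cells (main 55), it was 27 without the 60 min columns and 28 without the 90 min columns. At the lowest doses in WT cells (main 16), it was 27.1 in brighter members, 28 without the 45 min columns, 1 without the 60 min columns, 3 without the 90 min columns and 31 with a spline. Early in WT cells (main 20), it was 13 with columns centred before the rule, 13 with columns centred for the test only, 13 in a fit of only the columns outside the choice, 10 without the 60 min columns, 31 with time as a factor and 38 with a spline. After anti-IgM in WT + Inh cells (main 2), it was 0 with centring before the rule, 0 among the 50 members with the largest CD40L change, 5.08 in brighter members, 5 without the 45 min columns, 1 without the 90 min columns, 6 with time as a factor and 11 with a spline. After anti-IgM in IKKβSA cells (main 9), it was 16.9 in brighter members, 2 without the 60 min columns and 15 with a spline. For the difference between WT + Inh and IKKβSA cells (main 0), it was 1 with time as a factor and 1 with a spline. The cause of these shifts was not tested. CD40L against 0 min and against anti-IgM in WT + Inh cells kept its count within 1.5 times under every alternative. Sizes did change when 8 intensity units were added before the log. The median difference between CD40L and anti-IgM was then 0.42 log2 in WT + Inh cells, against 0.75 without the addition. In IKKβSA cells it was 0.24 log2, against 0.48. Centring before the rule kept 91 of the members, and an anti-IgM limit of 0.15 kept 52.

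No paired analysis was possible because, for replicates, each condition and time is 1 column that already combines 2 of them. No test set single columns of the same time against each other, and the comparisons by time are descriptions. The fit with time as a factor took out only a time effect common to all courses. In that fit 94 members were called above anti-IgM in WT + Inh cells, against 58 in IKKβSA cells. The members' median standard error was 0.21 log2 against 0 min, and that of all probe sets was 0.14, and the cause was not tested. Each of the 3 unstimulated values is a single column that enters every comparison with 0 min of its cells.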
